A study of Mus musculus with 108 samples.

Results

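Wnt, Fgf and Bmp genes encode the ligands of 3 families of signalling pathways. They were taken here as the autosomal protein-coding genes of the mm10 RefSeq annotation whose symbols consist of Wnt, Fgf or Bmp, a number and, in some, a letter, without the receptors and without Fgf21. The rule gave 48 of 20021 genes, namely 19 Wnt, 19 Fgf and 10 Bmp genes, and it used their names only. The name does not make every one of them a secreted signal. Bmp1 encodes a protease that trims procollagen, and Fgf11, Fgf12 and Fgf14 encode intracellular proteins that bind sodium channels. Only the letters a and b were accepted, so that Bmp2k, which encodes a kinase, was left out.

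Livers of C57BL/6 female mice, fixed in formalin and embedded in paraffin, were profiled by ChIP-seq for H3K4me3, H3K27me3, H3K27ac and H3K4me1. The 3 groups described here were mice of 3 months on standard diet (SD 3m, 30 libraries), mice of 12 months on standard diet (SD 12m, 29 libraries) and mice of 12 months on caloric restriction with 30% fewer calories (CR 12m, 29 libraries). In each group the libraries of a mark were merged and every 200 bp bin of the genome was given 1 of 8 chromatin states, so that a group has 1 segmentation. A difference between groups could therefore not be compared with the spread between mice, no test is given, and the read depth of the merged libraries is unknown.

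Wnt proteins bind Frizzled receptors together with the co-receptors Lrp5 and Lrp6 and stabilise beta-catenin, Fgf proteins bind receptor tyrosine kinases, and Bmp proteins bind receptor kinases that phosphorylate Smad proteins. The families pattern the embryo, and in adult tissues many of their genes are silent and covered by H3K27me3, the mark set by Polycomb. In adult liver, Wnt2 and Wnt9b from endothelial cells around the central vein maintain the zones of the lobule, Bmp2 and Bmp6 from sinusoidal endothelial cells control the iron hormone hepcidin, and Fgf15 from the gut lowers bile acid synthesis.

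The samples carried the marks of liver. The transcription start site (TSS) of all 8 hepatocyte marker genes lay in states 1 to 5 in each of the 3 groups, and that of none of 6 neuron and muscle genes did. Of all 20021 genes, 63.0%, 63.1% and 63.4% had the TSS in states 1 to 5 in SD 3m, SD 12m and CR 12m. Markers of cell types that make up less of the liver were in states 1 to 5 less evenly. These were 4, 5 and 7 of 7 endothelial genes in SD 3m, SD 12m and CR 12m, 1 of 6 stellate cell genes in each group, 2, 1 and 1 of 5 Kupffer cell genes, 2, 3 and 4 of 6 cholangiocyte genes and 2, 2 and 1 of 4 lymphocyte genes. State 6 held the TSS of 0, 3 and 2 of the 6 stellate cell genes and of 1, 4 and 3 of the 5 Kupffer cell genes, and of no endothelial gene, 0, 1 and 0 cholangiocyte genes and 1, 1 and 2 lymphocyte genes. As whole liver was used, a state at a gene is that of the mixture, and a smaller share of cells with a mark cannot be told apart from less of the mark per cell. Part of these markers moved with age and diet, and their part in the results on the ligand genes was not tested.

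State 6, in which H3K27me3 is the only mark, was the most frequent state at the TSS of the ligand genes. It held the TSS bin of 24, 25 and 23 of the 48 genes in SD 3m, SD 12m and CR 12m. Of all 20021 genes, 9.97%, 13.8% and 11.5% had the TSS bin in state 6 in the same order. Over the 3 groups, 34 of the 48 genes were in state 6 in at least 1 group, a share that was not computed over all genes. State 8, without any of the 4 marks, came second with 14, 11 and 9 ligand genes (29.2%, 22.9% and 18.8%), near its 25.5%, 19.4% and 23.5% of all genes. State 7, which has weak H3K4me3 and was named by the study for repeats and lamina-associated domains, held the TSS of 0 ligand genes and of 1.56%, 3.68% and 1.47% of all genes, so that 0 of 48 lay close to the background.

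States of promoters were rare. State 1 (active TSS, with H3K4me3 and H3K27ac) or state 2 (flanking TSS, with H3K4me1 in addition) was found at the TSS of 4 ligand genes in SD 3m and of 1 in each 12-month group. These states held 46.4%, 40.5% and 35.7% of the TSS of all genes in SD 3m, SD 12m and CR 12m. The enhancer states 3 (H3K27ac and H3K4me1), 4 (weaker H3K27ac) and 5 (poised, H3K4me1 only) together held the TSS of 6, 11 and 15 ligand genes, that is 12.5%, 22.9% and 31.3%, while they held 16.6%, 22.6% and 27.7% of all TSS.

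**Figure D1:**
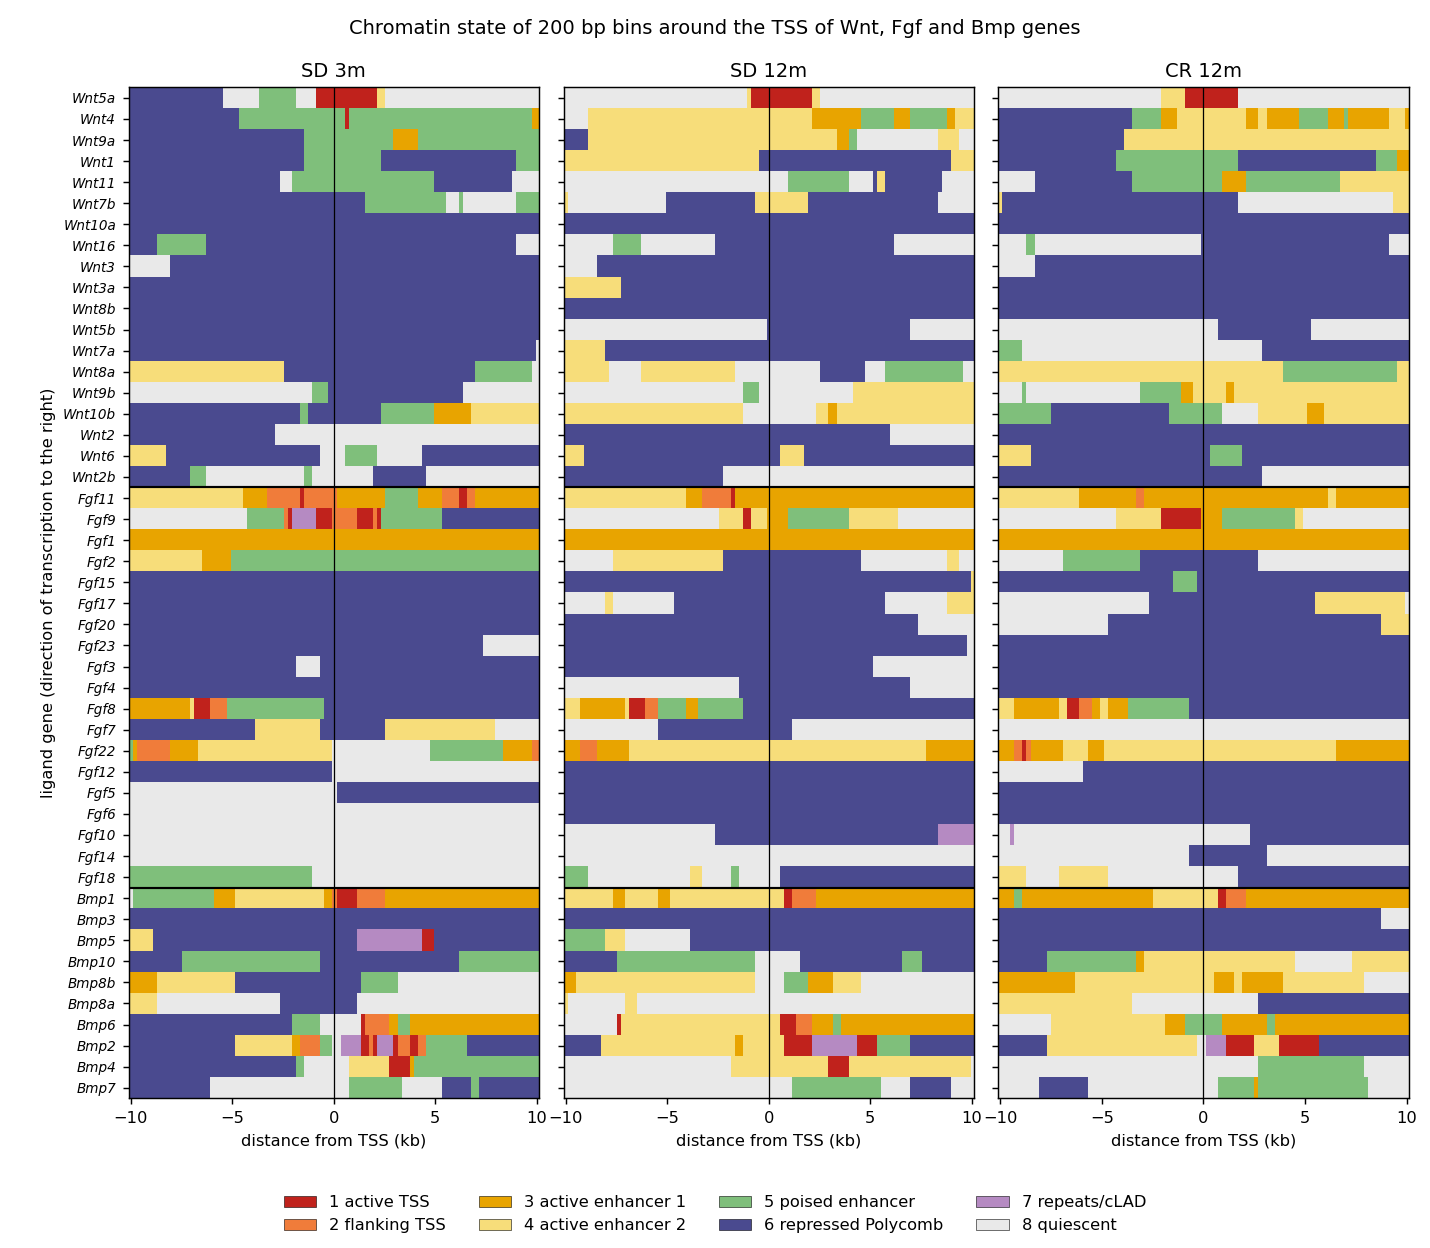
Chromatin state of each 200 bp bin from 10 kb before to 10 kb after the TSS of the 48 ligand genes (rows, Wnt, Fgf and Bmp from top to bottom, each sorted by the state of the TSS bin), with 1 panel per group. State 6 covers the TSS of 24, 25 and 23 genes in SD 3m, SD 12m and CR 12m, often as an unbroken block. Of the TSS used here, state 1 lies at that of Wnt5a only.

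The 3 families differed in how their counts in state 6 compared between groups. State 6 held 11, 10 and 9 of the 19 Wnt genes in SD 3m, SD 12m and CR 12m. Of the 19 Fgf genes, it held 8, 13 and 12. Of the 10 Bmp genes, it held 5 at 3 months and 2 in each 12-month group. Its share of all genes was 9.97%, 13.8% and 11.5% in SD 3m, SD 12m and CR 12m. The number of Bmp genes in the enhancer states was 0 in SD 3m and 4 in both SD 12m and CR 12m. The share of all genes in these states was also higher at 12 months, with 16.6%, 22.6% and 27.7% in SD 3m, SD 12m and CR 12m. With 1 segmentation per group, whether the families differ was not tested.

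The TSS of 14 ligand genes was in state 6 in all 3 groups, or 29.2% of the 48, compared to 6.10% of all genes. They comprise 5 Wnt genes (Wnt3, Wnt3a, Wnt8b, Wnt10a and Wnt16), 7 Fgf genes (Fgf3, Fgf4, Fgf8, Fgf15, Fgf17, Fgf20 and Fgf23) and 2 Bmp genes (Bmp3 and Bmp5). Wnt3a, which drives the formation of the body axis and the somites, was the most completely covered. Each of its 21 bins within 2 kb of the TSS and 100% of its gene body were in state 6 in SD 3m, SD 12m and CR 12m, in stretches of 58.4, 52.4 and 57.8 kb. Fgf15, the gut hormone that acts on the liver, had 100% of its gene body in state 6 in all 3 groups, in stretches of 21.4, 20 and 10.4 kb. Fgf8, a signal of the limb bud and the midbrain, also had 100% of its gene body in state 6 in each group, in stretches of 39, 67 and 67.2 kb. Fgf23, the phosphate hormone of bone, lay in stretches of 48, 93.8 and 95.6 kb. Bmp3, which antagonises other Bmp signals in bone, and Wnt8b, a gene of the forebrain, had stretches of 46 and 38.4 kb in SD 3m. At 12 months those of Bmp3 measured 68.8 kb on standard diet and 34.4 kb on caloric restriction, and those of Wnt8b measured 39.8 and 36.6 kb.

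The stretches of state 6 over the TSS of ligand genes had a median length of 24.5 kb in SD 3m (3.2 to 58.4 kb, 24 genes), of 25 kb in SD 12m (6.6 to 198.4 kb, 25 genes) and of 34.4 kb in CR 12m (3.8 to 188.4 kb, 23 genes). Over all genes with the TSS in state 6, the medians were 29.2, 32.8 and 31.2 kb, above those of the ligand genes in the SD groups and below in CR 12m. The longest stretch over a ligand gene was that of Fgf5, a regulator of the hair cycle, with 198.4 kb in SD 12m and 188.4 kb in CR 12m. In SD 3m the TSS bin of Fgf5 was in state 8, and a stretch of state 6 of 19.4 kb began in the next bin.

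Promoter sequences are shown for 6 genes that stand for the patterns described here. Each is the 250 bases before the TSS in RefSeq on GRCm38.p6, which mm10 represents, written from 5′ to 3′ on the strand of the gene, with CG dinucleotides in capitals because CG-rich promoters are common targets of Polycomb. Wnt3a (chr11:59290752-59291001, minus strand, 41 CG) and Fgf23 (chr6:127072652-127072901, plus strand, 6 CG) were in state 6 in all 3 groups. Wnt2 (chr6:18030446-18030695, minus strand, 20 CG) was in state 8 in SD 3m and Fgf2 (chr3:37348403-37348652, plus strand, 20 CG) in state 5, and both were in state 6 in SD 12m and CR 12m. Bmp10 (chr6:87428744-87428993, plus strand, 3 CG) and Wnt9b (chr11:103749822-103750071, minus strand, 22 CG) were in state 6 in SD 3m, in state 8 in SD 12m and in state 4 in CR 12m.
Wnt3a: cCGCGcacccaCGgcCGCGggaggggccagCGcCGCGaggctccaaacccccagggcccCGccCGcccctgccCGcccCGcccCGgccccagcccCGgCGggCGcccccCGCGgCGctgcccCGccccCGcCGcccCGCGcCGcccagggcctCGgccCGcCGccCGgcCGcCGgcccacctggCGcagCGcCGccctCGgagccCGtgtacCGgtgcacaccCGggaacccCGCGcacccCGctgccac
Fgf23: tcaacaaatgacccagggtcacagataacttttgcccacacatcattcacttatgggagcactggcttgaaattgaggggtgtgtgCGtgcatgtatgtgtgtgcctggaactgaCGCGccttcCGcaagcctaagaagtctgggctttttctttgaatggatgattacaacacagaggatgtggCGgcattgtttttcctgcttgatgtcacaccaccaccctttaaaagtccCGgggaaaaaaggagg
Wnt2: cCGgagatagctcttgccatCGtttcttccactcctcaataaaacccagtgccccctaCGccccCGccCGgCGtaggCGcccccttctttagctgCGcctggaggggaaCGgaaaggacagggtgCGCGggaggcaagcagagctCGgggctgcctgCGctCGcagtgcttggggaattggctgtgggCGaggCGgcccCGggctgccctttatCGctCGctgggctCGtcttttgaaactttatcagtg
Fgf2: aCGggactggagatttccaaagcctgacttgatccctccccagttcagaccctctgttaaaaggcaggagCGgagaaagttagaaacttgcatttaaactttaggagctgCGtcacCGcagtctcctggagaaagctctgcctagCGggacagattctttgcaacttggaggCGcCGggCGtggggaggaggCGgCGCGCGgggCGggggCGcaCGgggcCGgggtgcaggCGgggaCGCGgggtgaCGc
Bmp10: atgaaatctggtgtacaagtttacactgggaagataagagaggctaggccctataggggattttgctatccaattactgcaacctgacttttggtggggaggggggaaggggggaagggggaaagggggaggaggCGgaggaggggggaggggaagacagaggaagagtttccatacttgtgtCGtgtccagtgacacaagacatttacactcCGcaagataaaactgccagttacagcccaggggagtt
Wnt9b: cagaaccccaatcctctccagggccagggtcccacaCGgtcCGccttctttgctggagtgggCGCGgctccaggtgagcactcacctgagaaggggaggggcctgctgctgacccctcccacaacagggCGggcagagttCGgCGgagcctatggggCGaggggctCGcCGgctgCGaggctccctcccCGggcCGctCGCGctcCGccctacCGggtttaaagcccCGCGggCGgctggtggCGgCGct

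Promoters with the same states in these 6 genes held very different numbers of CG dinucleotides, with 41 in Wnt3a and 6 in Fgf23 and with 3 in Bmp10 and 22 in Wnt9b. Of the 48 ligand genes, 34 were in the RefSeq promoter table at the TSS used here. They had a median of 19 CG in 250 bases (3 to 48), compared to 11 over 15660 of all genes. The CG dinucleotide reads the same on both strands, and 10 or more of it were found in 70.6% of the ligand promoters and in 53.0% of all promoters. Wnt promoters had a median of 28 CG (15 genes), Fgf promoters 11 (13 genes) and Bmp promoters 11.5 (6 genes).

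The median number of CG was lowest in the ligand genes that were in state 6 in all 3 groups. It was 7.5 in 8 of the 14 genes in state 6 in all 3 groups. The median was 20 in 17 of the 20 genes in state 6 in 1 or 2 groups. In 9 of the 14 genes in state 6 in no group it was 22. The other genes had no entry in the RefSeq promoter table. The ranges overlapped, with 4 to 41, 3 to 36 and 5 to 48 CG. Among all genes, the median was 8 for the 947 with a promoter and the TSS in state 6 in all 3 groups. For the 5716 with a promoter and the TSS in state 1 in SD 3m it was 19. For the other TSS states in SD 3m, it was 12 in state 2, 4 in state 3 and 8 in states 4 and 5. It was 6 in state 6, 9 in state 7 and 2 in state 8.

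**Figure D2:**
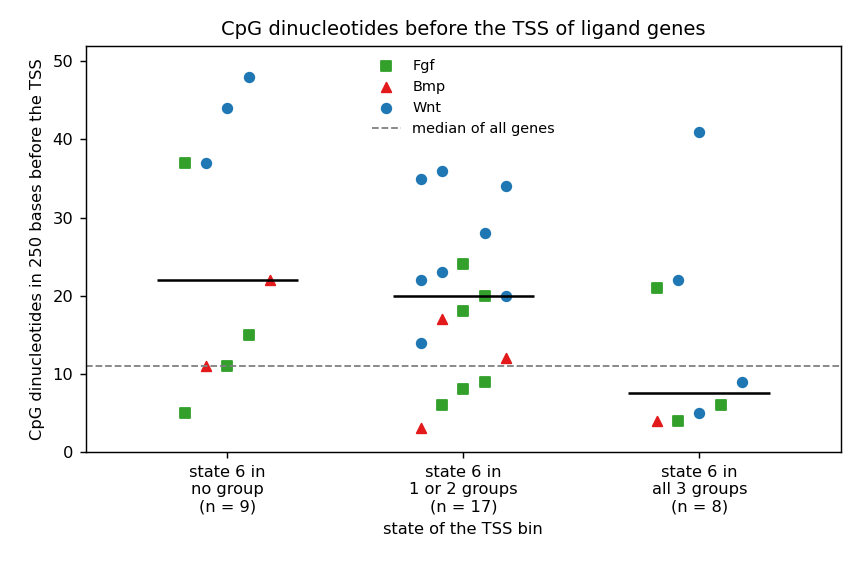
Number of CpG dinucleotides (CG) in the 250 bases before the TSS of 34 ligand genes (points, marked by family), split by the number of groups in which the TSS bin was in state 6, with the median of each set (black line) and of all genes (dashed line, 11). The medians are 22, 20 and 7.5 from left to right, and the points of the 3 sets overlap.

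The comparison of SD 12m with SD 3m asks which states differ with age, and that of CR 12m with SD 3m asks the same for mice on caloric restriction. Both comparisons use the single SD 3m segmentation, so that an error in it enters both. The TSS bin of 25 of 48 ligand genes (52.1%) differed in state between SD 12m and SD 3m, with 32.7% of all genes as the background. That of 24 of 48 (50%) differed between CR 12m and SD 3m, with a background of 35.5%. Between CR 12m and SD 12m, which differ in diet, 17 of 48 (35.4%) had another state, with a background of 27.1%. The background includes the many genes whose TSS was in state 1 in every group. Genes that began in state 6 were near their own background, as 7 of the 24 ligand genes in state 6 in SD 3m were in another state in SD 12m (29.2%, background 25.7%) and 9 of 24 in CR 12m (37.5%, background 33.1%).

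Genes outside state 6 at 3 months lay further from their background. There were 24 such ligand genes, and 8 of them (33.3%) were in state 6 in SD 12m, with a background of 7.11% of the 18025 genes outside state 6 at 3 months. They were Fgf2, Fgf5, Fgf6, Fgf10, Fgf12, Wnt1, Wnt2 and Wnt6. In CR 12m, 8 of 24 were in state 6 (33.3%, background 5.42%), namely Fgf2, Fgf5, Fgf6, Fgf12, Fgf14, Wnt2, Wnt2b and Wnt6. This background counts many genes in active states, which most ligand genes were not. Taking only TSS in state 8 in SD 3m, 6 of 14 ligand genes were in state 6 in SD 12m (42.9%, background 21.9%) and 7 of 14 in CR 12m (50%, background 15.7%). Among stellate cell markers, 5 had an unmarked TSS at 3 months, of which 3 lay in state 6 in SD 12m and 2 in CR 12m, and their part in this result was not tested. Over the bins within 2 kb of the TSS that were in state 8 at 3 months, 48.8% of 215 bins at ligand genes were in state 6 in SD 12m and 50.7% in CR 12m, against 21.3% and 15.1% at all genes. Up to 21 neighbouring bins belong to the same gene and are not independent.

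Wnt2, the Wnt of central vein endothelium, had all 21 bins within 2 kb of its TSS in state 8 in SD 3m and all in state 6 in both 12-month groups. State 6 held 0%, 15.3% and 55.5% of its gene body (chr6:17988940-18030445) in SD 3m, SD 12m and CR 12m. Fgf6, a gene of skeletal muscle, lies 57.4 kb from Fgf23. Its gene body was in state 8 throughout in SD 3m and in state 6 throughout in both 12-month groups, where a single stretch of state 6 covered the TSS of both genes. Fgf2, the basic fibroblast growth factor, had the poised enhancer state 5 in all 21 bins in SD 3m and state 6 in all 21 in SD 12m and CR 12m. Only 8.16% of its gene body was in state 6 in SD 12m and 4.97% in CR 12m, as most of the remainder was in state 8.

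Fgf10, which directs lung and limb budding, was in state 6 at all 21 bins in SD 12m and in state 8 at all 21 in SD 3m and CR 12m. State 6 held 0%, 10.8% and 17.4% of its gene body in SD 3m, SD 12m and CR 12m. In CR 12m it thus lay outside the window. Fgf12 had 47.6% of the bins within 2 kb in state 6 in SD 3m, beginning 0.2 kb from its TSS bin, and 100% in both 12-month groups. Fgf14 was in state 6 at its TSS in CR 12m, in a stretch of 3.8 kb, and in state 8 in the other groups. Wnt1, a gene of the midbrain, was in state 5 in SD 3m, in state 6 in SD 12m and in state 5 in CR 12m. Wnt6 had 33.3%, 71.4% and 61.9% of the bins within 2 kb in state 6, so that its TSS bin lay near the edge of such a stretch. Wnt2b was in state 8 in SD 3m and SD 12m and had 100% of its window in state 6 in CR 12m.

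Of the 7 ligand genes in state 6 in SD 3m but not in SD 12m, 6 were in state 8 in SD 12m (Bmp8a, Bmp8b, Bmp10, Wnt8a, Wnt9b and Wnt10b) and 1, Wnt7b, was in state 4. Among all genes that differed in this way, 73.7% were in state 8 and 22.8% in states 3 to 5, so that these counts were near the background. In CR 12m, 4 of the 9 ligand genes that differed were in state 8 (Bmp8a, Fgf7, Wnt5b and Wnt7a) and 5 were in enhancer states, with Bmp8b, Bmp10, Wnt8a and Wnt9b in state 4 and Wnt10b in state 5. For all genes the background was 79.0% in state 8 and 20.1% in states 3 to 5. At the level of bins within 2 kb of the TSS, enhancer states 3 to 5 held 6.42% of the 483 bins of former state 6 in SD 12m and 18% of them in CR 12m. At all genes these shares were 7.75% and 8.24%. The bins in enhancer states in CR 12m lay mostly at the same 5 genes, so that they are not a separate observation. In SD 12m and CR 12m, state 8 held 21.1% and 17.0% of the 483 bins, against 19.65% and 26.66% at all genes.

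Wnt9b, which acts with Wnt2 at the central vein, had 57.1% of its window in state 6 in SD 3m and 0% at 12 months. State 4 held 50% of its gene body (chr11:103727363-103749821) in SD 12m and 76.3% in CR 12m. Bmp10, a circulating ligand known from the heart, had 100%, 72.4% and 0% of its gene body (chr6:87428994-87434512) in state 6 in SD 3m, SD 12m and CR 12m, and state 4 held 79.3% of it in CR 12m. Wnt8a, an early embryonic gene, had 100%, 36.7% and 0% of its gene body in state 6 in the same order, with 66.7% in state 4 in CR 12m. Bmp8b, known for germ cells and brown fat, had 81.0% of its window in state 6 in SD 3m and none at 12 months. Its close relative Bmp8a had 76.2% of its window in state 6 in SD 3m and none at 12 months, when all 21 bins were in state 8 in both groups. State 6 held 3.90%, 0% and 29.2% of the gene body of Bmp8a in SD 3m, SD 12m and CR 12m. Wnt10b, known from bone and fat, had 90.5%, 0% and 9.52% of the window in state 6.

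Fgf7, the keratinocyte growth factor of mesenchymal cells, had 66.7%, 76.2% and 0% of its window in state 6 in SD 3m, SD 12m and CR 12m. Wnt7a, which specifies the dorsal limb, had 100% in SD 3m and SD 12m and 0% in CR 12m. Its gene body did not follow its window, as state 6 held 21.0%, 35.7% and 46.6% of it in the same order. Wnt5b had 100%, 52.4% and 33.3% of its window in state 6. Between the 12-month groups, 5 genes were thus in state 6 at the TSS in SD 12m and not in CR 12m (Fgf7, Fgf10, Wnt1, Wnt5b and Wnt7a). The TSS of 3 was in state 6 in CR 12m and not in SD 12m (Fgf14, Wnt2b and Wnt7b). The matching counts over all genes were not computed, but state 6 also held more of all TSS in SD 12m (13.8%) than in CR 12m (11.5%).

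**Figure D3:**
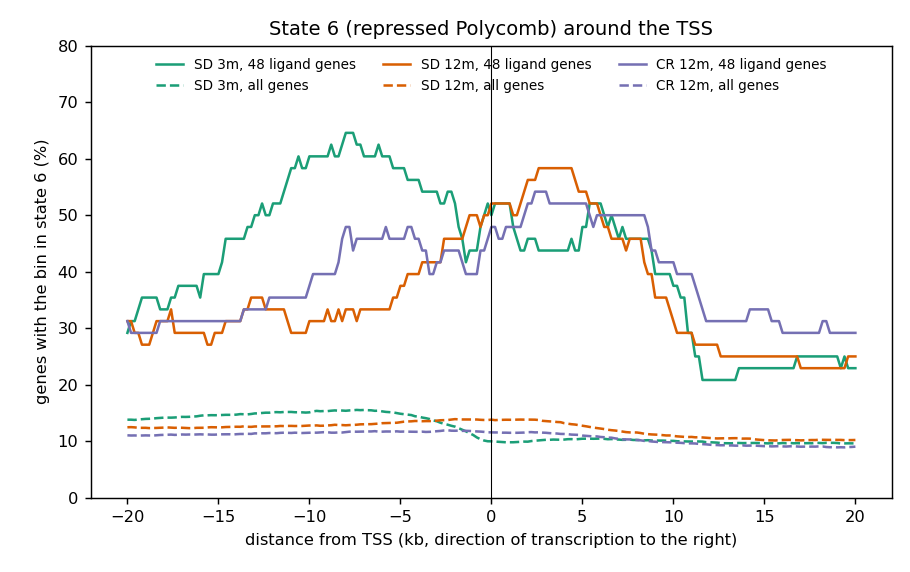
Percent of genes with the bin in state 6 by distance from the TSS (kb), for the 48 ligand genes (solid lines) and all 20021 autosomal protein-coding genes (dashed lines) in the 3 groups. At the TSS the ligand genes reach 50%, 52.1% and 47.9%, and the SD 3m line lies above the 12-month lines at 10 and 5 kb before the TSS but not at 20 kb before it.

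The window of 2 kb on each side of the TSS was in state 6 in 47.9%, 50.4% and 45.2% of the 1008 bins of the ligand genes in SD 3m, SD 12m and CR 12m. Over all genes these shares were 10.5%, 13.8% and 11.6%. All 21 bins were in state 6 in 14, 19 and 17 ligand genes, and none was in 17, 20 and 21, so that most ligand genes had either a whole window of state 6 or nothing of it. Over all genes, 7.79%, 11.4% and 9.43% had all 21 bins in state 6, and 17114, 16740 and 17205 of the 20021 had none. The plot of state 6 by distance also shows that the groups came apart away from the TSS. At 10 kb before the TSS, 60.4%, 31.3% and 37.5% of the ligand genes were in state 6 in SD 3m, SD 12m and CR 12m. At 10 kb after it, the values were 37.5%, 31.3% and 41.7%. Over all genes, the values at 10 kb before the TSS were 15.1%, 12.8% and 11.5%.

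Of the ligand genes in state 6 in no group, all but Bmp7 and Fgf18 were in states 1 to 5 in some group. The TSS of 14 ligand genes was in state 6 in no group, namely Bmp1, Bmp2, Bmp4, Bmp6, Bmp7, Fgf1, Fgf9, Fgf11, Fgf18, Fgf22, Wnt4, Wnt5a, Wnt9a and Wnt11. Neither share was computed over all genes. Wnt5a, which signals mostly without beta-catenin, was the only ligand gene whose TSS used here was in state 1 in any group. Its TSS was in state 1 in all 3. State 1 held 15 of its 21 bins in SD 3m and SD 12m and 13 in CR 12m, whereas 88.3%, 88.3% and 91.9% of its gene body was in state 8. A second curated TSS of Wnt5a, 5.93 kb away, was in state 8 in all 3 groups. A second curated TSS of Bmp1, 0.412 kb from the one used here, was in state 1 in SD 3m and in state 4 in both 12-month groups.

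Fgf1, the acidic fibroblast growth factor, was in the active enhancer state 3 at every bin within 2 kb of the TSS in all 3 groups. State 3 also held 84.8%, 89.0% and 94.0% of its gene body in SD 3m, SD 12m and CR 12m. Fgf21, the fasting hormone of the liver and not a member by the rule, was in state 3 at its TSS and over 100% of its gene body in the same groups. Bmp1 was in state 2 in SD 3m and in state 4 at 12 months, and state 3 held 56.0%, 59.9% and 62.1% of its gene body. Fgf11 was in state 2 in SD 3m and in state 3 in both 12-month groups, with 56.3%, 100% and 96.9% of its gene body in state 3.

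Fgf9, a signal of the gonad and the lung, had an active TSS region next to a gene body in state 6 at 3 months. In SD 3m its TSS was in state 2, 15 of 21 bins in the window were in state 1 or 2, and 86.6% of its gene body was in state 6. In SD 12m and CR 12m its TSS was in state 3, 2 and 10 of the 21 bins were in state 1 or 2, and 0% of the gene body was in state 6. State 8 then held 84.1% and 87.6% of the gene body.

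The Bmp genes of liver endothelium were without state 6 at the TSS. Bmp6 was in state 8 in SD 3m, in state 4 in SD 12m and in state 5 in CR 12m. State 1 or 2 held 4, 8 and 0 of the 21 bins in its window, and state 6 held 26.0% of its gene body in SD 3m and 0% at 12 months. Bmp2 was in state 8 in SD 3m, in state 4 in SD 12m and in state 8 in CR 12m. Its window held 9, 7 and 5 bins in state 1 or 2 in the same order, and 40%, 36.4% and 47.3% of its gene body was in state 6. Bmp4, known from mesenchymal cells and from the induction of the embryonic liver, had the same order of TSS states as Bmp2. State 4 held 86.5% of its gene body in SD 12m, and state 5 held 45.9% in SD 3m and 62.2% in CR 12m. Bmp7, a gene of the kidney, was in state 8 in all 3 groups.

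Of the remaining genes, Wnt4 and Wnt9a were in state 5 in SD 3m and in state 4 in both 12-month groups. State 5 held 79.1% of the gene body of Wnt4, a gene of the kidney and the female reproductive tract, in SD 3m, and state 4 held 36.4% in SD 12m and 52.7% in CR 12m. Fgf22, a signal at synapses, had its whole gene body in state 8 in SD 3m and in state 4 in the other groups. Wnt11 was in state 5, 8 and 5 in SD 3m, SD 12m and CR 12m. Wnt7b was in state 6 in SD 3m, in state 4 in SD 12m and in state 6 in CR 12m. Fgf18, a gene of cartilage and bone, had its TSS in state 8 in all 3 groups, but 0%, 57.5% and 46.4% of its gene body was in state 6 in SD 3m, SD 12m and CR 12m.

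**Figure D4:**
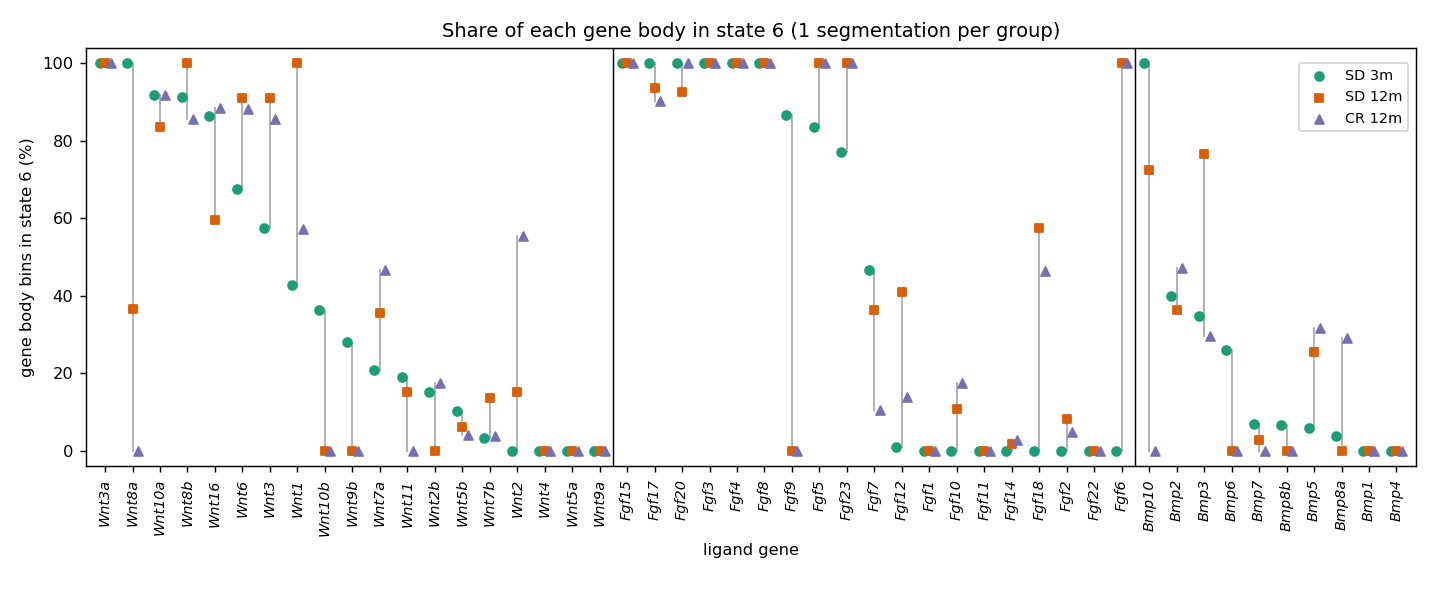
Percent of the gene body bins in state 6 for each ligand gene (columns, by family and by the value in SD 3m) in SD 3m (circles), SD 12m (squares) and CR 12m (triangles), joined by a grey line from the lowest to the highest value. Wnt3a, Fgf3, Fgf4, Fgf8 and Fgf15 lie at 100% in all 3 groups, and Fgf6, Bmp10 and Wnt8a differ by 100 percentage points between groups.

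Over whole gene bodies, state 6 held 13.3%, 22.7% and 16.9% of the 13834 bins of the ligand genes in SD 3m, SD 12m and CR 12m, compared to 6.51%, 10.9% and 8.46% over all genes. These sums rest on length, as Fgf12 and Fgf14 alone hold 46.8% of the bins. Fgf12 was in state 6 in 1.14%, 41.1% and 14.0% of its gene body. Without Fgf11, Fgf12 and Fgf14 the shares were 24.6%, 25.3% and 24.8%, with less than 1 percentage point between the groups. Per gene, the median share was 23.5%, 30.6% and 17.5%. Compared to SD 3m, the share of the gene body in state 6 was larger in 17 genes, smaller in 18 and equal in 13 in SD 12m, and larger in 19, smaller in 14 and equal in 15 in CR 12m. Gene bodies in state 6 throughout were found in 9, 10 and 9 ligand genes, and those without any state 6 in 14, 15 and 17. Over all 20021 genes, 867, 1187 and 951 gene bodies were in state 6 throughout, and 82.3%, 80.9% and 82.6% were without it.

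State 7 was prominent in the gene bodies of Fgf10 and Fgf14 in SD 12m. It held 0.477%, 9.35% and 0.846% of the gene body bins of the ligand genes in SD 3m, SD 12m and CR 12m, compared to 1.43%, 5.36% and 2.21% over all genes. In SD 12m it covered 61.3% of Fgf10, which had none in SD 3m and CR 12m, and 29.9% of Fgf14, which had 0.401% in SD 3m and 3.20% in CR 12m.

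Several ligand genes are neighbours and share their stretches, so that they are not independent observations. Of the 48 genes, 13 have another ligand gene within 100 kb of the TSS, in 8 pairs. Fgf3 and Fgf4 lie 22.8 kb apart on chromosome 7 and shared 1 stretch of state 6, 34 kb long in SD 3m and 69.8 kb in CR 12m. In SD 12m they had separate stretches of 19.8 and 8.4 kb, and 29.8% of the bins between them were in state 6. Fgf15, 35.2 kb from Fgf4, had a stretch of its own in each group. Wnt3a and Wnt9a, 16.2 kb apart on chromosome 11, differed, as the stretch over the TSS of Wnt3a in SD 3m ended 1.6 kb from the TSS bin of Wnt9a, which itself was in state 5. Of the bins between them, 90.2%, 45.1% and 75.6% were in state 6 in SD 3m, SD 12m and CR 12m.

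Wnt3 and Wnt9b, 24.4 kb apart on the same chromosome, differed at 12 months. Wnt3, which is needed for gastrulation, was in state 6 over its whole window in all 3 groups, while Wnt9b was in state 8 in SD 12m and in state 4 in CR 12m. Wnt1 and Wnt10b, 11.7 kb apart on chromosome 15, had 83.3%, 5% and 48.3% of the bins between them in state 6 in SD 3m, SD 12m and CR 12m. Wnt6 and Wnt10a, 20.1 kb apart on chromosome 1, had 78.4%, 94.1% and 92.2%.

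Some ligand genes have further curated TSS, and 8 of the 48 have 20 TSS in all. The longest transcript of Wnt5b starts in state 6, 6 and 8 in SD 3m, SD 12m and CR 12m, but its other TSS, 77.1 and 94.96 kb away, were in state 3 in all 3 groups. The second TSS of Fgf14, 484.6 kb away, was in state 6 in SD 12m and in state 8 in the other groups, which is the other way round from its TSS used here. The 3 further TSS of Fgf12 were in state 8 in SD 3m and in state 6 in SD 12m, and 2 of them were in state 6 in CR 12m. The second TSS of Wnt11, 3.73 kb away, was in state 5 in all 3 groups. For Wnt7b, a TSS 3.75 kb away was in state 5, 6 and 8 in SD 3m, SD 12m and CR 12m. Another, 1.09 kb away, was in state 6, 4 and 6, as was the TSS used here.

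The genes that receive and modulate these signals were listed for comparison. Of 29 receptor genes, 24, 23 and 23 had the TSS in states 1 to 5 in SD 3m, SD 12m and CR 12m. Of all genes, 63.0%, 63.1% and 63.4% did in the same order. State 6 held 2, 4 and 4 of the receptor genes (6.90%, 13.8% and 13.8%), near its 9.97%, 13.8% and 11.5% of all genes. Among them Fzd4, Fzd7, Lrp5, Fgfr3, Bmpr1a and Bmpr2 were in state 1 in all 3 groups, and Ror2, a receptor of Wnt5a, and Bmpr1b were in state 6 in all 3. Fgfr4, the receptor of Fgf15 in hepatocytes, was in state 1 in SD 3m, in state 4 in SD 12m and in state 3 in CR 12m, and its co-receptor Klb was in state 2 throughout. The TSS state differed from SD 3m in 8 of 29 receptor genes (27.6%) in each 12-month group.

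Secreted antagonists and R-spondins were closer to the ligands in their counts. Of 25 genes, 8, 13 and 11 were in state 6 in SD 3m, SD 12m and CR 12m (32%, 52% and 44%). The background was 9.97%, 13.8% and 11.5% of all genes. In the same order, 7, 5 and 8 were in states 1 to 5, with 63.0%, 63.1% and 63.4% of all genes as the background. All 4 R-spondin genes, which encode potentiators of Wnt signals, were in state 8 in SD 3m and in state 6 in SD 12m and CR 12m. This includes Rspo3, which central vein endothelium makes together with Wnt2 and Wnt9b. The Bmp antagonists Nog, Grem1 and Sostdc1 and the Wnt antagonists Sfrp2 and Wif1 were in state 6 in all 3 groups.

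Of 29 target genes, 24, 25 and 24 had the TSS in states 1 to 5 in SD 3m, SD 12m and CR 12m. The background was 63.0%, 63.1% and 63.4% of all genes. State 6 held 2, 1 and 2 of the target genes (6.90%, 3.45% and 6.90%), with 9.97%, 13.8% and 11.5% of all genes as the background. Glul, the pericentral glutamine synthetase that depends on Wnt signals, was in state 1 in all 3 groups, and Axin2, a feedback inhibitor of the same pathway, was in state 5 in SD 3m and in state 4 at 12 months. Hamp, which encodes hepcidin and is driven by Bmp6, was in state 4 in SD 3m and SD 12m and in state 1 in CR 12m. Cyp7a1, the bile acid synthesis gene that Fgf15 represses, was in state 3 in SD 3m, in state 5 in SD 12m and in state 3 in CR 12m.

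**Figure D5:**
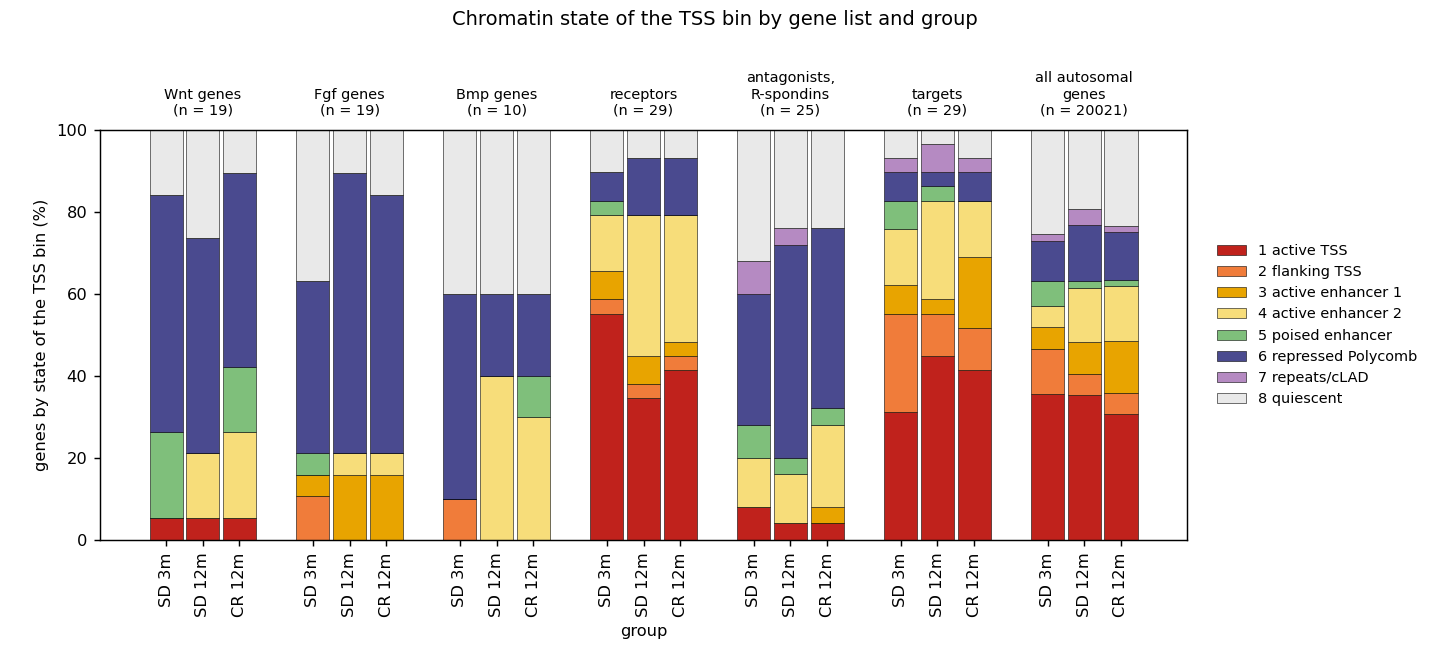
Percent of genes by the chromatin state of the TSS bin, for the Wnt, Fgf and Bmp genes, their receptors, secreted antagonists with R-spondins, target genes and all autosomal protein-coding genes, with 1 bar per group and the number of genes above. State 6 holds 24, 25 and 23 of the 48 ligand genes and 2, 4 and 4 of the 29 receptor genes in SD 3m, SD 12m and CR 12m. Its share of all genes is 9.97%, 13.8% and 11.5%.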

How the data were processed

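The deposited values are chromatin state labels in bins of 200 bp, from 1 to 8, and hold no counts or signal. Per the labels and the methods of the study, the authors used BWA (0.6.2-r126) to align reads to mm10, used SAMtools (0.1.18) to filter out duplicates and reads of low mapping quality, merged the libraries of each group and mark, binarized them and trained 1 model with ChromHMM. Merging, threshold and smoothing along the genome are thus part of every label, and the depth behind a label is unknown.

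Segmentations were assigned to groups by their names. Genes were the 20021 autosomal protein-coding genes with a curated RefSeq transcript in GRCm38.p6, whose chromosomes have the lengths of the 3 segmentations. The TSS and gene body came from the transcript of greatest span. The state of the TSS bin, of that bin with 10 bins on each side and of the gene body was read in Python 3.11.15 with numpy 2.4.6. Figures were drawn with matplotlib 3.10.9. The functions were tested on simulated segmentations.

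The members and the gene lists were chosen with earlier results of these data known. Named were all members with the TSS in states 1 to 5 in any group or with a TSS state that differed between groups, the 5 with the longest stretches of state 6 and the 5 highest and 5 lowest shares of the gene body in state 6 in SD 3m (ties included), 10 ligands with known roles and Fgf21. SD 6m was not analysed here.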

Additional observations from a re-analysis of the deposited data

How the results depend on the processing

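Under 11 alternatives, all 42 recomputed counts of genes stayed within 1.5 times the reported ones, and 50 of 68 recomputed percentages stayed within the Wilson 95% interval over bins, which covers neither mice nor the dependence of neighbouring bins. The other 18 moved. With 1 gene per locus, the window was in state 6 in 43.2% (SD 3m), 45.6% (SD 12m) and 41.2% (CR 12m) of the bins and differed from SD 3m in 52.7% in CR 12m, and the gene bodies were in state 6 in 11.8%, 20.9% and 14.9%. With the TSS of the greatest spliced length, the window was in state 6 in 41.3% in CR 12m and the gene bodies in 14.6%, 16.2% and 15.5%. Without Fgf11, Fgf12 and Fgf14, the gene bodies were in state 6 in 24.6%, 25.3% and 24.8%, and with Bmp2k in 21.9% in SD 12m. The share of window bins that differed between SD 12m and SD 3m was 42.9% within 5 kb of the TSS and 39.3% with the states merged into 5 classes, which gave 40.97% for CR 12m, as fewer classes can differ.

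Leaving out replicates was not run, as libraries were merged before the states were assigned. No paired analysis was possible because each group has 1 segmentation. A mark missed for lack of depth cannot be told apart from an absent one.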
